A study of Gallus gallus with 8 samples.

Results

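The genes described here are the chick cyclins A, B, D and E, the cyclin-dependent kinases (CDKs), the genes named as CDK inhibitors, the E2F transcription factors and the MCM genes. They were chosen by gene name alone, as every row of the count table named CCNA, CCNB, CCND or CCNE with a number, CDK with a number, CDKN with a number, E2F with a number or MCM with a number. This gave 47 of the 17329 genes in the table. The name brings in 3 genes of another kind: the phosphatase CDKN3, CDKN2AIP, a binding partner of the CDKN2A product, and MCM3AP, a partner of MCM3. Of 34 core members fixed for naming, 29 were matched; CCNB1, CDK4, CDKN1A, CDKN1C and MCM7 were not among the rows found by the rule and are not analysed here.

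The series sequenced messenger RNA of chick embryo ectoderm in 8 libraries, 1 per group. At the pre-streak stage EGKXII/XIII, before gastrulation, the central and the anterior epiblast were dissected. At HH4, a primitive streak stage in the Hamburger and Hamilton series, a graft of the organiser, Hensen's node, was placed in the area opaca, an extraembryonic ectoderm; epiblast that had touched it for 5 hours was taken, and the ungrafted control was area opaca from the other side of the same embryos. The HH6/7 embryos gave neural plate, anterior and posterior preplacodal region (from which sense organs and cranial ganglia form) and the remaining head ectoderm, neither neural nor placodal, called non-neural ectoderm below. Per the labels, 1 laboratory provided 5 libraries (both pre-streak regions, both area opaca sides and the neural plate) and another provided the 3 others. A difference between the neural plate and the non-neural ectoderm and a difference between these laboratories therefore cannot be told apart. The number of embryos in a library is not given in the sources used here.

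As background, a dividing cell is driven by kinases that work only when bound to a cyclin. D cyclins with CDK4 or CDK6 respond to growth signals and inactivate the retinoblastoma protein, which frees E2F factors to switch on genes for DNA synthesis. Cyclins E and A with CDK2 then start and carry DNA replication, for which MCM2 to MCM7 form the ring-shaped helicase loaded at origins, and cyclins A and B with CDK1 drive mitosis; inhibitors of the CDKN families hold these kinases back. The roles given below are those known from human and mouse cells.

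Levels are given as CPM, the count divided by the library total and scaled to 1000000. Totals ran from 13053810 in the node-grafted to 138666339 in the posterior preplacodal library, with 14573663 in the ungrafted area opaca and at least 58731944 in the 6 others. A count of 0 allows up to 0.0216 to 0.230 CPM, taking 3 counts as the floor. With 1 library per group there is no replicate and no test. Each difference is a ratio of CPM, and the brackets after it hold its exact Clopper-Pearson 95% interval, which covers counting error only and not the variation between embryos. Calls follow a rule of size: a ratio of 2 or more in either direction, with 5 CPM or more on the higher side. Only genes with 5 CPM in either library are counted as measured in a comparison. In bulk tissue, fewer cells of a type and less RNA per cell cannot be told apart.

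Markers of the dissected tissues followed their labels in the main. The summed level of 6 neural plate markers was 789.9 CPM in the neural plate, 617 and 549 CPM in the anterior and posterior preplacodal regions, and 68.6 CPM in the non-neural ectoderm, with SIX3 at 0 in all 8 libraries. The 5 preplacodal markers summed to 217 and 178 CPM in the preplacodal regions and to between 32.6 and 104 CPM elsewhere. Markers of other cells also differed. The 5 matched blood and endothelium markers summed to 62.7 CPM in the non-neural ectoderm, where 4 of 5 reached 1 CPM (KDR 32.8 CPM, LMO2 19.0 CPM), against 1.51 to 5.45 CPM in the others. The 7 endoderm and yolk markers summed to 163 CPM there, against 18.5 to 96.2 CPM in the others. APOA1 had 100 CPM and TTR 34.3 CPM in the non-neural ectoderm, and GATA4 8.77 CPM, against 8.58 CPM in the ungrafted area opaca. RBP4, GATA6 and FOXA2 were highest in other libraries, and SOX17 was at 0 in the non-neural ectoderm. On the grafted side of the area opaca, the 7 matched node and mesoderm markers summed to 45.3 CPM, against 0.412 CPM on the ungrafted side. T had 24.8 and 0.206 CPM and CHRD 8.04 and 0 CPM, and SHH was at 0 on both sides. The same markers summed to 285 and 81.2 CPM in the anterior and central pre-streak epiblast. They summed to 30.45 CPM in the neural plate and 8.94 to 12.2 CPM in the other HH6/7 libraries. The part of these cells in the differences described below was not tested.

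Most of these genes were well measured, and their levels spread about as widely over the tissues as those of the genes counted in every library. Of the 47, 42 reached 5 CPM in at least 1 library. The 5 that never did were CDK3, CDK15 and the inhibitors CDKN2A, CDKN2B and CDKN2C. Per transcript length, in the authors' deposited FPKM, the mitotic kinase CDK1 stood first and its partner CCNB2 second among the 47 in each of the 8 libraries, at 456 to 776 and 155 to 385 FPKM, against a median over the 47 genes of 17.1 to 22.4 FPKM. Across the 8 libraries the highest CPM was a median of 2.26 times the lowest over the 42 measured members, against 2.38 times over the 10374 genes that reached 5 CPM. The spread reached 4 times in 8 members (19.0%) and in 27.3% of those 10374 genes. It was widest for CCNA1 (22.6 times), CDK19 (13.7), CDK6 (11.8), CCND1 (10.8), E2F2 (6.49), CDK5 (5.82), CDK18 (5.44) and CDK14 (4.75), and narrowest for E2F5, a partner of the pocket proteins in repression (1.25). The lowest levels of CCNA1 and CDK19 were in the shallow node-grafted library, on 7 and 17 counts, so their spreads are imprecise.

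**Figure D1:**
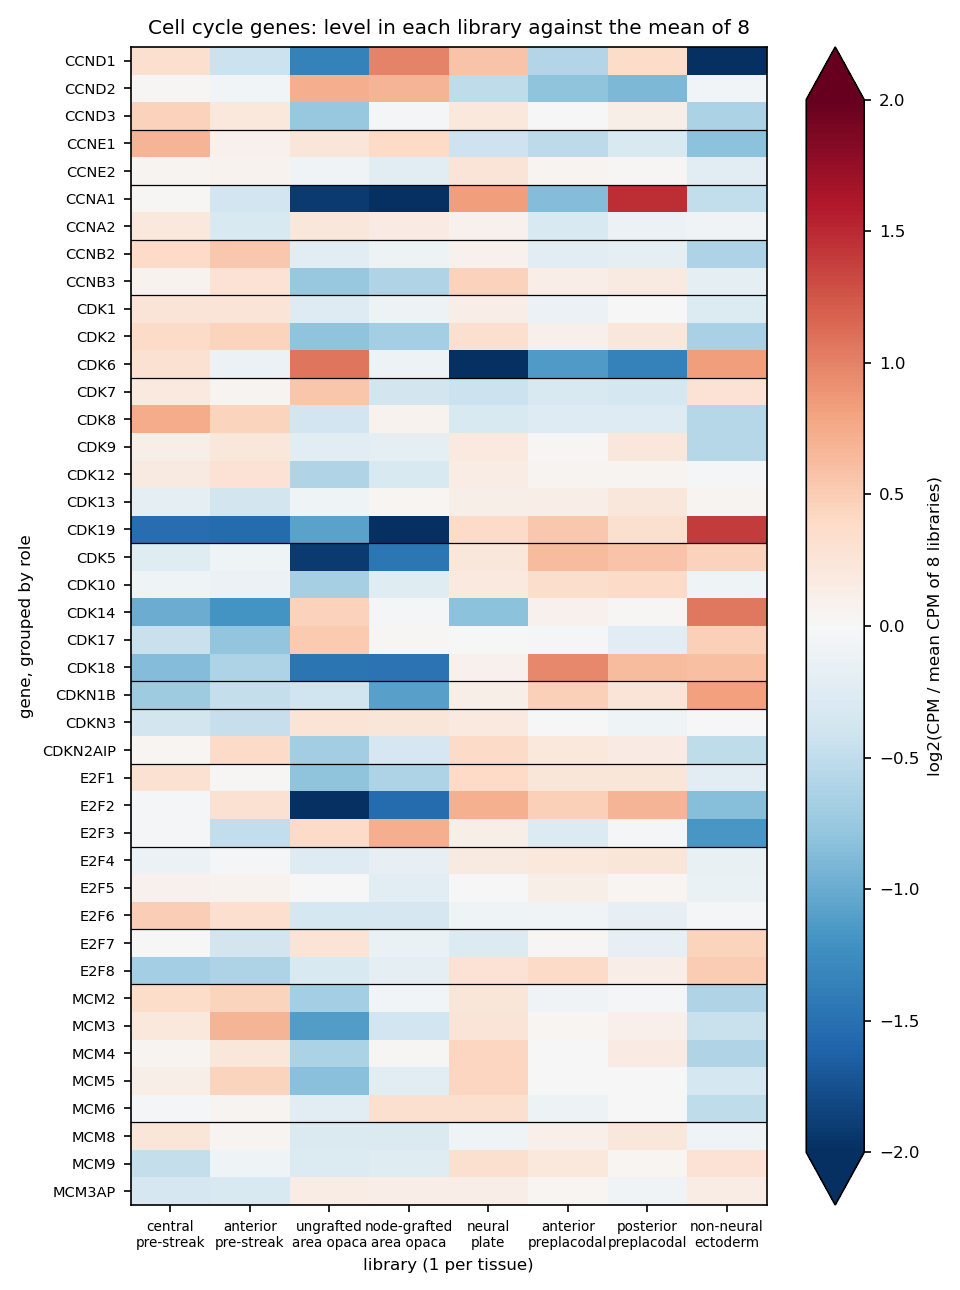
Level of the 42 genes that reached 5 CPM, as log2 of CPM over the gene's mean in 8 libraries (colour, cut at 2 in each direction); rows are genes grouped by role and columns are libraries, 1 per tissue. Most rows are pale, and the strongest colours are in CCND1, CCNA1, CDK6, CDK19 and E2F2.

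In 7 comparisons, 8 of the 42 were called at least once (CCND1, CCNA1, CDK6, CDK14, CDK19, E2F2, E2F3 and MCM4), and 34 never were. Contact with the node went with 1 member higher and 1 lower of 39 measured, where 7.56% of all 9437 measured genes were higher and 8.57% lower. The neural plate had 5 of 42 higher and 3 lower than the non-neural ectoderm, where 9.18% of all genes were higher and 13.1% lower. The anterior preplacodal region had 2 of 41 higher and 1 lower than the non-neural ectoderm (all genes 6.73% and 7.22%), and the posterior region 4 of 42 higher and 3 lower (all genes 6.93% and 8.48%). These shares of members rest on 1 to 5 genes each and lie on both sides of the shares of all genes, from 11.9% higher in the neural plate to 2.44% lower in the anterior preplacodal region. The 3 comparisons with non-neural ectoderm share that library, so their calls are not separate evidence.

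The 2 pre-streak regions, and the 2 preplacodal regions, differed in few members. Between the anterior and the central pre-streak epiblast 0 of 40 measured members were called either way, where 6.09% of all genes were higher and 4.71% lower anteriorly. Between the anterior and posterior preplacodal regions 1 of 42 was lower and 0 higher (all genes 0.700% lower and 0.791% higher). From the anterior pre-streak epiblast to the neural plate, which differ in stage and in region, 2 of 42 were higher and 1 lower (all genes 14.8% and 4.75%). In this last comparison the median log2 ratio of all genes moved from 0.18 by library totals to 0.03 with TMM factors and 0.01 with DESeq2 size factors. The members' median moved with it, from 0.19 to 0.05 and 0.03.

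Smaller differences were more frequent, and ran in both directions. The members' median log2 ratio to non-neural ectoderm was 0.28 in the neural plate, in the anterior preplacodal region and in the posterior preplacodal region, where the medians of all genes were 0.04, 0.04 and 0.05. At a ratio of 1.5, 16 of 42 members (38.1%) were higher in the neural plate than in the non-neural ectoderm, against 17.5% of all genes, and 6 (14.3%) were lower, against 20.5%. In the anterior preplacodal region 8 of 41 (19.5%) were higher and 5 (12.2%) lower, against 13.9% and 13.4% of all genes. In the posterior region 9 of 42 (21.4%) were higher and 7 (16.7%) lower, against 14.6% and 15.1%. On the grafted side of the area opaca 6 of 39 (15.4%) were higher and 3 (7.69%) lower, against 14.1% and 15.3%. The sums of the blood and endothelium markers and of the endoderm and yolk markers were highest in the non-neural ectoderm library (above), though not every single marker was. The part of such cells in these differences was not tested.

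**Figure D2:**
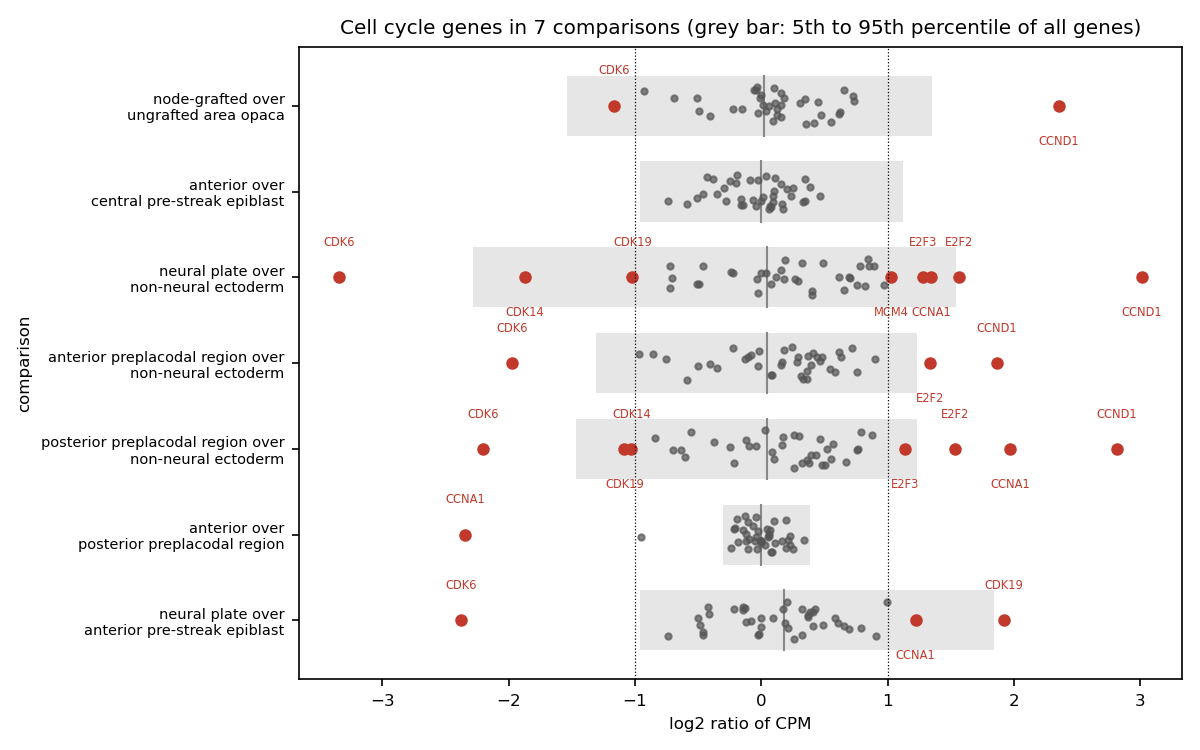
Log2 ratio of CPM (x axis) for each measured gene of the set in 7 comparisons (y axis); red points with names passed the rule of a ratio of 2 (dotted lines), dark points did not, and grey bars span the 5th to the 95th percentile of all measured genes with a line at their median. CCND1 and CDK6 lie outside the dotted lines, on opposite sides, in 4 comparisons, among them the 3 with non-neural ectoderm.

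Among the D cyclins and their kinases, CCND1 and CDK6 were called in several comparisons, and CCND2 and CCND3 in none. CCND1 (ENSGALG00000007555), a D cyclin that responds to mitogens, stood at 91.1 CPM in the central and 54.5 CPM in the anterior pre-streak epiblast. It had 28.6 CPM in the ungrafted and 146 CPM in the node-grafted area opaca. At HH6/7 it stood at 109 CPM in the neural plate, 49.1 and 95.04 CPM in the anterior and posterior preplacodal regions, and 13.5 CPM in the non-neural ectoderm. The grafted area opaca was thus the highest of the 8 libraries and the non-neural ectoderm the lowest, with the ungrafted area opaca next to it. CCND1 was 5.11-fold higher with the node [4.60, 5.70]. Over the non-neural ectoderm it was 8.07-fold higher in the neural plate [7.51, 8.68], 3.64-fold in the anterior [3.37, 3.93] and 7.05-fold in the posterior preplacodal region [6.56, 7.58].

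CCND1 also had regional differences just under the rule. It was 1.67-fold lower in the anterior than in the central pre-streak epiblast [1.62, 1.73] and 1.94-fold lower in the anterior than in the posterior preplacodal region [1.87, 2.003]. The neural plate had 1.998 times the anterior pre-streak level [1.93, 2.06], the value nearest below the threshold among all members.

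CDK6 (ENSGALG00000009476), a kinase that D cyclins activate, was highest in the libraries where CCND1 was lowest. It stood at 48.5 and 36.1 CPM in the central and anterior pre-streak epiblast and at 82.3 CPM in the ungrafted area opaca, the highest of the 8. The grafted side had 36.7 CPM, the neural plate 6.94 CPM, the anterior and posterior preplacodal regions 17.9 and 15.3 CPM, and the non-neural ectoderm 70.4 CPM. The lowest level was thus in the neural plate, where CCND1 was second highest. CDK6 was 2.24-fold lower with the node [2.02, 2.50], 10.1-fold lower in the neural plate than in the non-neural ectoderm [9.38, 11.0], and 3.92-fold [3.71, 4.15] and 4.59-fold [4.36, 4.84] lower in the anterior and posterior preplacodal regions. Compared with the anterior pre-streak epiblast, the neural plate was 5.19-fold lower [4.80, 5.62]. CDK4, the other kinase that D cyclins activate, is not analysed here.

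The other D cyclins differed less. CCND2 stood at 36.0 and 34.9 CPM on the ungrafted and grafted sides, 15.3 CPM in the neural plate, 12.5 and 11.8 CPM in the anterior and posterior preplacodal regions, 21.1 CPM in the non-neural ectoderm and 22.1 and 21.1 CPM in the pre-streak libraries. CCND3 had 23.4 CPM with the node against 14.1 CPM without it, a ratio of 1.65 [1.38, 1.98], and 27.7 CPM in the neural plate against 15.3 CPM in the non-neural ectoderm (ratio 1.81 [1.68, 1.95]).

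Per length, the leading D cyclin changed between tissues. In deposited FPKM, CCND1 made up 35.1% of the summed level of the 3 D cyclins in the ungrafted and 26.4% in the non-neural ectoderm library, and between 53.8% and 74.0% in the 6 others. CCND2 led in those same ectoderm libraries, with 52.9% and 52.2%, and made up 12.3% to 26.3% elsewhere. The ungrafted area opaca and the non-neural ectoderm also had the highest sums of non-neural markers, 2627 and 3091 CPM, of which KRT19 gave 1580 and 1524 CPM. GATA2, KRT18 and GRHL3 were also highest in these libraries. GATA3, DLX5 and TFAP2A were instead highest in a preplacodal region, at 104, 233 and 323 CPM. MSX1 was highest in the central pre-streak epiblast, at 137 CPM.

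**Figure D3:**
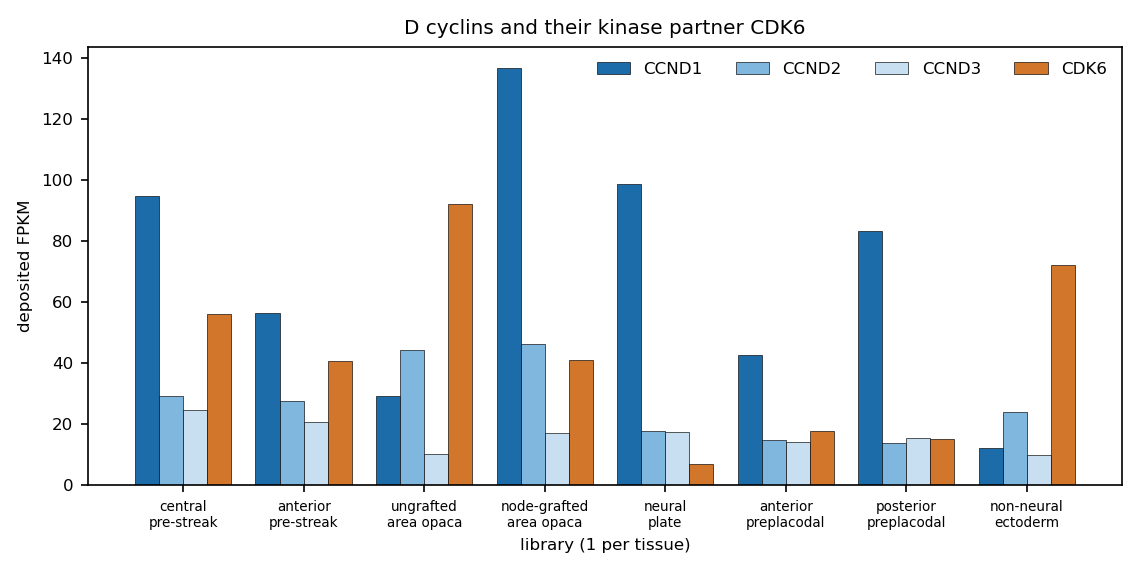
Deposited FPKM (y axis, linear) of CCND1, CCND2, CCND3 and CDK6 in the 8 libraries (x axis, 1 bar per gene and library, no error bars because each tissue has 1 library). CCND1 bars are tallest of the 4 genes in 6 libraries, and CDK6 bars are tallest in the ungrafted area opaca and the non-neural ectoderm, at 92.2 and 72.0 FPKM.

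Cyclins of the DNA synthesis phase varied less, except CCNA1. CCNE1, a partner of CDK2 at the start of replication, was highest in the central pre-streak epiblast at 131 CPM and lowest in the non-neural ectoderm at 46.5 CPM. It had 87.1 CPM in the anterior pre-streak epiblast, 97.3 and 108 CPM in the ungrafted and grafted area opaca, 61.4 CPM in the neural plate and 56.9 and 66.0 CPM in the anterior and posterior preplacodal regions. The pre-streak and area opaca libraries were thus above all 4 of HH6/7. CCNE2 ran only from 42.9 to 60.2 CPM and CCNA2, the A cyclin of most dividing cells, from 102 to 147 CPM.

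CCNA1 (ENSGALG00000017052), an A cyclin best known from the male germ line, was low in all libraries and differed most in proportion. Its counts were 447 and 336 in the central and anterior pre-streak epiblast, 17 and 7 in the ungrafted and grafted area opaca, 863 in the neural plate, 230 and 1684 in the anterior and posterior preplacodal regions and 182 in the non-neural ectoderm. In CPM the posterior preplacodal region was highest, at 12.1, followed by the neural plate at 7.85, and the anterior preplacodal region had 2.39. CCNA1 was 5.08-fold lower in the anterior than in the posterior preplacodal region [4.43, 5.86], the only call between these regions. It was 2.53-fold higher in the neural plate [2.16, 2.99] and 3.92-fold higher in the posterior preplacodal region [3.36, 4.59] than in the non-neural ectoderm, and 2.33-fold higher in the neural plate than in the anterior pre-streak epiblast [2.05, 2.65], a call that was lost in FPKM with a pseudocount of 1.

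The mitotic cyclins CCNB2 and CCNB3 and their kinase CDK1 were high throughout, and CDK2 was lower, at 13.65 to 37.55 FPKM. CCNB2 was highest in the anterior (717 CPM) and central (639.9 CPM) pre-streak epiblast and lowest in the non-neural ectoderm (322 CPM). CCNB3 ran from 127 CPM in the ungrafted area opaca to 294 CPM in the neural plate. CDK1 ran from 519 CPM in the non-neural ectoderm to 747 CPM in the central pre-streak epiblast, a spread of 1.44 times. CDK2, the kinase of cyclins E and A, stood at 11.1 and 12.1 CPM in the ungrafted and grafted area opaca and 12.3 CPM in the non-neural ectoderm, and between 20.9 and 26.5 CPM in the 5 others. Its ratio of neural plate to non-neural ectoderm, 1.96 [1.81, 2.14], lay just under the rule, and passed it with TMM factors and in FPKM. None of these 4 genes was called in any comparison.

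Among the CDK inhibitors, only CDKN1B (p27), which binds and blocks cyclin-CDK2 complexes, was measured above 5 CPM. It stood at 12.9 and 15.2 CPM in the central and anterior pre-streak epiblast, 16.1 and 9.96 CPM in the ungrafted and grafted area opaca, 22.8 CPM in the neural plate, 29.3 and 25.3 CPM in the anterior and posterior preplacodal regions and 37.3 CPM in the non-neural ectoderm. All 4 HH6/7 libraries lay above the pre-streak and area opaca libraries. Its ratios were under the rule, at 1.61-fold lower with the node [1.30, 2.01] and 1.63-fold lower in the neural plate than in the non-neural ectoderm [1.54, 1.73].

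The genes named as INK4 inhibitors, which in human and mouse cells block CDK4 and CDK6, had counts at or near 0. CDKN2A had 2 counts in the neural plate and 0 in each of the 7 others, and CDKN2C had 5 counts in the neural plate and 0 in the others. Per length, in deposited FPKM, these counts stood for 0.846 FPKM of CDKN2A and 0.0653 FPKM of CDKN2C. The CDKN2A row thus catches few counts for its level, and its counts of 0 do not show absence. CDKN2B had 12 counts in the central pre-streak epiblast, 1 each in the anterior pre-streak and the grafted library, and 0 in the other 5. CDKN3, the phosphatase that acts on CDK2, ran from 15.0 to 24.98 CPM and CDKN2AIP from 34.9 to 73.4 CPM, and neither was called.

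Of the 3 activating E2F factors, E2F2 was higher in the neural plate and both preplacodal regions than in the non-neural ectoderm, E2F3 was higher in the neural plate and the posterior region, and E2F1 was not called. E2F2 (ENSGALG00000026792) stood at 7.42 and 9.41 CPM in the central and anterior pre-streak epiblast, 1.92 and 2.60 CPM in the ungrafted and grafted area opaca, 12.5 CPM in the neural plate, 10.6 and 12.2 CPM in the anterior and posterior preplacodal regions and 4.21 CPM in the non-neural ectoderm. The area opaca sides and the non-neural ectoderm were thus the 3 lowest. It was 2.97-fold higher in the neural plate [2.59, 3.41], 2.53-fold in the anterior [2.20, 2.92] and 2.89-fold in the posterior preplacodal region [2.53, 3.32] than in the non-neural ectoderm.

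E2F3 (ENSGALG00000012680) had its highest levels where E2F2 had its lowest. It stood at 17.3 and 21.99 CPM in the ungrafted and grafted area opaca, 13.0 and 9.47 CPM in the central and anterior pre-streak epiblast, 14.4 CPM in the neural plate, 11.0 and 13.1 CPM in the anterior and posterior preplacodal regions and 5.93 CPM in the non-neural ectoderm. Over the non-neural ectoderm it was 2.43-fold higher in the neural plate [2.16, 2.74] and 2.21-fold in the posterior region [1.97, 2.48]; the anterior region's ratio of 1.86 [1.65, 2.11] was under the rule. E2F1 ran from 16.5 CPM in the ungrafted area opaca to 37.7 CPM in the neural plate, with a ratio of 1.54 [1.45, 1.63] between neural plate and non-neural ectoderm.

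The repressing and atypical E2F factors were not called in any comparison. E2F4 ran from 38.4 to 54.5 CPM, E2F5 from 27.7 to 34.7 CPM and E2F6 from 37.1 CPM in the ungrafted area opaca to 66.2 CPM in the central pre-streak epiblast. E2F7 and E2F8, which bind DNA without a DP partner and repress E2F targets, had their highest level in the non-neural ectoderm, at 111 and 90.8 CPM. E2F7 was 1.65-fold lower in the neural plate than there [1.59, 1.70], and E2F8 1.17-fold lower [1.13, 1.21]. E2F8 had 39.7 to 55.4 CPM in the pre-streak and area opaca libraries and 70.0 to 90.8 CPM in those of HH6/7.

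The 5 measured subunits of the replicative helicase, MCM2 to MCM6, had ratios above 1 with the node and in each comparison with the non-neural ectoderm, and of these ratios the rule called only that of MCM4 in the neural plate. MCM2 stood at 484 and 515 CPM in the central and anterior pre-streak epiblast, 236 and 361 CPM in the ungrafted and grafted area opaca, 444 CPM in the neural plate, 360.0 and 366 CPM in the anterior and posterior preplacodal regions and 247 CPM in the non-neural ectoderm. In 4 of the 5 subunits the ungrafted area opaca was the lowest of the 8 libraries; in MCM6 it was the non-neural ectoderm. The grafted side was higher for all 5, with ratios from 1.47 to 1.66 and 4 of them at 1.5 or more, where 14.1% of all genes were.

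In the neural plate all 5 had ratios of at least 1.63 over the non-neural ectoderm, where 17.5% of all genes reached 1.5. MCM4 (ENSGALG00000012915) was called, at 342 against 168 CPM, a ratio of 2.04 [1.99, 2.08] that fell under 2 in FPKM. In the anterior and posterior preplacodal regions the 5 ratios ran from 1.28 to 1.53 and from 1.28 to 1.70, with 1 of 5 at 1.5 or more in each. Between the preplacodal regions they ran from 0.904 to 1.001. From the anterior pre-streak epiblast to the neural plate they lay on both sides of 1, from 0.745 to 1.20, with 2 subunits above and 3 below. In the anterior over the central pre-streak epiblast all 5 ratios were also above 1, from 1.06 to 1.38. MCM3 was the widest there, with 508 CPM anteriorly and 368 CPM centrally.

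MCM8 and MCM9, which act in DNA repair by recombination, did not share this pattern of levels. MCM8 had 14.2 CPM on both sides of the area opaca and 14.2 to 20.5 CPM over all libraries, and MCM9 ran from 12.6 to 21.8 CPM with 21.8 CPM in the neural plate and 21.3 CPM in the non-neural ectoderm. MCM3AP ran from 127 to 179 CPM.

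**Figure D4:**
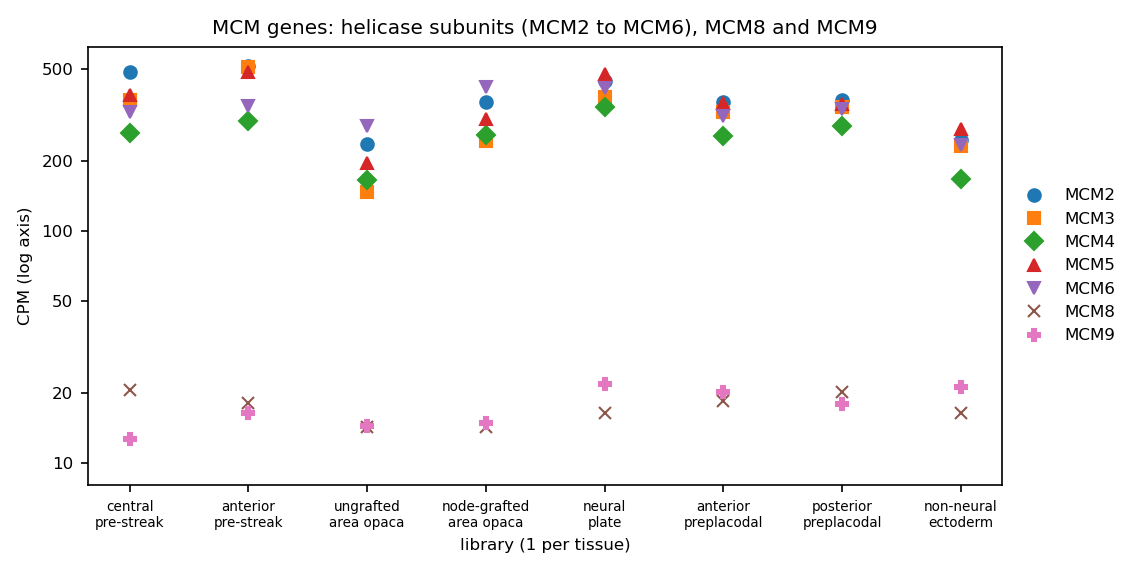
CPM (y axis, log scale) of MCM2 to MCM6, MCM8 and MCM9 in the 8 libraries (x axis), 1 point per gene and library; CPM does not allow levels of different genes to be compared. The 5 helicase subunits are higher in the grafted than in the ungrafted area opaca, and MCM8 and MCM9 stay between 12.6 and 21.8 CPM.

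CDKs that act on transcription or outside the core cycle held the remaining calls. CDK19 (ENSGALG00000015051), a kinase of the Mediator complex, stood at 2.34 and 2.32 CPM in the central and anterior pre-streak epiblast, 3.22 and 1.30 CPM in the ungrafted and grafted area opaca, 8.77 CPM in the neural plate, 9.83 and 8.41 CPM in the anterior and posterior preplacodal regions and 17.8 CPM in the non-neural ectoderm. All HH6/7 libraries were above the pre-streak and area opaca libraries. CDK19 was 3.79-fold higher in the neural plate than in the anterior pre-streak epiblast [3.28, 4.39]. It was 2.03-fold lower in the neural plate [1.86, 2.22] and 2.12-fold lower in the posterior preplacodal region [1.95, 2.30] than in the non-neural ectoderm; the neural plate call was lost with TMM factors, DESeq2 size factors and FPKM, and the posterior call in FPKM with a pseudocount of 1. CDK8, its close relative in Mediator, was highest in the pre-streak libraries, at 188 and 153 CPM, and had 86.5 and 118 CPM in the ungrafted and grafted area opaca and 76.0 to 94.9 CPM at HH6/7.

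CDK14 (ENSGALG00000009062), which cyclin Y recruits to the membrane in Wnt signalling, stood at 18.0 and 15.6 CPM in the central and anterior pre-streak epiblast, 49.2 and 34.6 CPM in the ungrafted and grafted area opaca, 20.2 CPM in the neural plate, 37.8 and 36.3 CPM in the anterior and posterior preplacodal regions and 74.0 CPM in the non-neural ectoderm. The non-neural ectoderm was highest and the ungrafted area opaca second. CDK14 was 3.66-fold lower in the neural plate [3.48, 3.86] and 2.04-fold lower in the posterior preplacodal region [1.96, 2.13] than in the non-neural ectoderm. The anterior region was 1.96-fold lower, just under the rule, so that the calls of both preplacodal regions lie at the threshold and change with the scaling.

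Cyclin Y itself, CCNY, had a similar order of levels. It stood at 6.98 and 4.97 CPM in the pre-streak libraries, 36.0 and 6.51 CPM in the ungrafted and grafted area opaca, 7.70 CPM in the neural plate, 25.04 and 14.2 CPM in the anterior and posterior preplacodal regions and 65.0 CPM in the non-neural ectoderm. CCNY was 5.53-fold lower with the node [4.39, 7.04], where CDK14 was not called. Against the non-neural ectoderm it was 8.44-fold [7.83, 9.11], 2.60-fold [2.47, 2.73] and 4.56-fold [4.32, 4.82] lower in the neural plate and the anterior and posterior preplacodal regions. CCNY belongs to the list of other cyclins and not to the 47.

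The other CDKs were not called. CDK7, the kinase that activates other CDKs and acts in transcription, had 50.2 CPM in the ungrafted and 26.4 CPM in the grafted area opaca, a ratio of 1.90-fold lower [1.67, 2.16]. CDK5, best known from neurons, had 3.98 and 5.52 CPM in the ungrafted and grafted area opaca, 12.6 and 14.1 CPM in the pre-streak libraries and 17.6 to 23.2 CPM at HH6/7. CDK18 ran likewise from 5.67 CPM in the grafted area opaca to 30.9 CPM in the anterior preplacodal region. CDK9, CDK10, CDK12, CDK13 and CDK17 had a highest level at most 2.48 times the lowest over the 8 libraries. CDK3 had at most 13 counts in a library, and CDK15 between 1 and 301 counts.

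**Figure D5:**
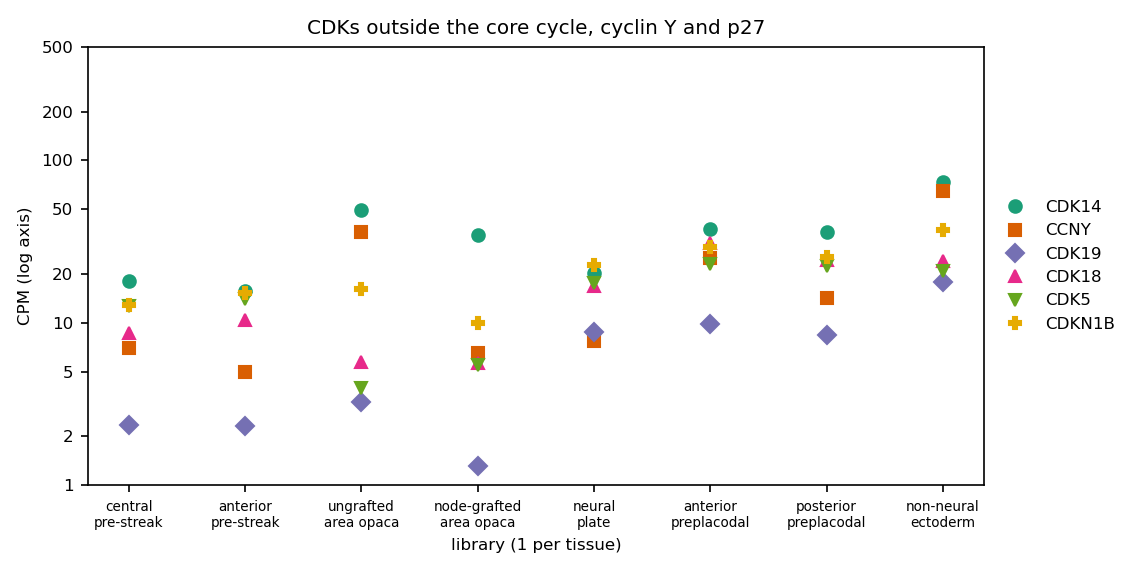
CPM (y axis, log scale) of CDK14, cyclin Y (CCNY), CDK19, CDK18, CDK5 and CDKN1B in the 8 libraries (x axis), 1 point per gene and library. CCNY and CDK14 are highest in the non-neural ectoderm, at 65.0 and 74.0 CPM, and CDK19, CDKN1B, CDK18 and CDK5 are higher in the 4 HH6/7 libraries than in the 4 others.

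Other genes of the same machinery were taken from 5 lists of 95 genes, 83 of which were matched. The 30 measured genes of replication licensing and the fork had a median log2 ratio of 0.50 (all genes 0.04) between neural plate and non-neural ectoderm. There 9.18% of all genes were higher in the neural plate and 13.1% lower. In the list 0 genes were lower, under the share of all genes, and 4 genes were higher, near it. They were ORC1, a subunit of the origin recognition complex (99.5 against 37.8 CPM, ratio 2.63 [2.51, 2.76]), the helicase loader CDC6 (54.3 against 21.9 CPM, 2.48 [2.33, 2.63]), GINS2, part of the active helicase (73.6 against 31.6 CPM, 2.33 [2.21, 2.45]) and RRM2, a subunit of ribonucleotide reductase (666 against 326 CPM, 2.04 [2.01, 2.08]). In the posterior preplacodal region ORC1, CDC6 and GINS2 were higher than in the non-neural ectoderm (2.62, 2.19 and 2.39 times) and in the anterior region ORC1 alone (2.13 times), where 6.93% and 6.73% of all genes were higher; the list medians were 0.37 and 0.31. On the grafted side of the area opaca 0 of the 30 were called, with a median of 0.17 (all genes 0.02).

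The lists of mitosis genes and of pocket proteins are short, and no conclusion is drawn from a count of 0 calls in them. The shares of all genes are given above. Of 19 measured mitosis genes 0 were called in any comparison with the non-neural ectoderm, with medians of 0.36, 0.23 and 0.30 in the neural plate and the anterior and posterior preplacodal regions. The 9 measured pocket proteins and their partners had 0 calls in all 7 comparisons. Among 13 measured other cyclins, CCNJ was higher in the neural plate (2.35 times [2.20, 2.51]) and the posterior preplacodal region (2.10 times [1.97, 2.25]) than in the non-neural ectoderm, beside CCNY, which was lower.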

How the data were processed

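The deposited table of raw counts per gene, made by the authors, gave the main values, and the authors' deposited FPKM table (fragments per kilobase, scaled to library size) served for levels between genes and as an alternative. TopHat2 and the build galGal4 are named in the submitters' processing notes; the counting program, annotation and strand setting were not given in the sources used here. Without a known strand setting, reads of overlapping antisense genes cannot be told apart. The 47 members carry Ensembl identifiers, and none of the 43 with at least 500 counts in all has the same counts as another row within 5%. CPM are counts over the column total; 3 counts are the floor, and intervals are exact at 95%. A call needs a ratio of 2 and 5 CPM in the higher library. Called members, a core list of 34 and called genes of the other lists are named. Other members (such as CDK5, CDK7, CDK8 and CDK18) were named for their levels after these had been seen. Members and lists were chosen with earlier results of these data known. Alternatives were TMM factors (edgeR 4.0.16), DESeq2 1.42.0 size factors, a ratio of 1.5, no minimum, FPKM with pseudocounts of 1 and 0.1, and leaving out 628 genes listed by RefSeq accession. The calculation was tested on simulated counts. R 4.3.3, Python 3.11.15, pandas 2.3.3, numpy 2.4.6, scipy 1.17.1 and matplotlib 3.10.9 were used. A planned count of promoter motifs was not made, since no promoter sequence was used here.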

Additional observations from a re-analysis of the deposited data

Results flagged for a closer look

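CCNA1 had opposite directions in the preplacodal regions against the same non-neural ectoderm library. Its log2 ratio was -0.375 in the anterior region (2.39 against 3.10 CPM) and 1.97 in the posterior region (12.1 against 3.10 CPM). The anterior comparison lay under the minimum of 5 CPM, so CCNA1 is not counted as measured there. The anterior ratio was 0.771 [0.632, 0.942]. Each region has 1 library, so the difference between them was not tested.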

How the results depend on the processing

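Of 49 counts of called members (7 comparisons under 7 alternatives), 35 were within 1.5 times the reported count and 14 were not. With no minimum beyond 3 counts, 6 members were called between the area opaca sides, 2 between the pre-streak regions, 2 between the preplacodal regions and 5 between neural plate and anterior pre-streak epiblast. At a ratio of 1.5 these counts were 9, 2, 2 and 11, and against the non-neural ectoderm 22 (neural plate), 13 (anterior preplacodal) and 16 (posterior preplacodal). In FPKM with a pseudocount of 0.1, 4 members were called between the area opaca sides, 1 between the pre-streak regions and 5 between neural plate and anterior pre-streak epiblast. Single values were followed for the called and core members only, where both libraries had more than 3 counts. Of these 1176 values under 6 alternatives, 9 lost and 7 gained a call, and 0 called values reversed direction. Values that were not called were not counted as reversed, and some of them changed sign. E2F6 did so with TMM factors between neural plate and non-neural ectoderm and between the area opaca sides. The cause was not tested, and changes in the other members are not in these counts. CDK19 in the neural plate against non-neural ectoderm had log2 ratios of -0.96 with TMM factors and -0.997 with DESeq2 size factors. With no minimum, CCNA1 and CDK19 were called lower on the grafted side (-1.12 and -1.31), where CCNA1 rests on 7 and 17 counts. No paired analysis was possible because each group has 1 library; for the same reason no library could be left out. The depth of the area opaca libraries limits genes near 1 CPM there.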

Other observations

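Of 10 measured genes of arrest and turnover, 2 were lower on the grafted side of the area opaca and 0 higher, where 8.57% of all genes were lower and 7.56% higher; a count of 2 in so short a list is not a result about the list. BTG2, an antiproliferative gene, had 25.4 against 83.1 CPM, 3.28-fold lower [2.90, 3.71], and the stress gene GADD45B 3.14 against 12.3 CPM, 3.91-fold lower [2.77, 5.63]. BTG2 was also 2.29-fold lower in the neural plate than in the non-neural ectoderm [2.20, 2.39], yet 2.40-fold higher there than in the anterior pre-streak epiblast [2.27, 2.54]. MDM2, which marks p53 for degradation, had 103 CPM in the non-neural ectoderm and was 2.16-fold, 2.35-fold and 2.37-fold lower in the neural plate and the anterior and posterior preplacodal regions. From the anterior pre-streak epiblast to the neural plate, GADD45A was 2.89-fold higher [2.71, 3.08], TOB1 2.70-fold lower [2.45, 2.96] and the proliferation marker MKI67 2.37-fold higher [2.32, 2.42]. In this comparison 14.8% of all genes were higher and 4.75% lower. MKI67 was lowest of all libraries in the anterior pre-streak epiblast, at 120 CPM. It had 223 CPM in the central pre-streak epiblast, and 377 and 356 CPM in the ungrafted and grafted area opaca. The neural plate had 285 CPM and the non-neural ectoderm 289 CPM. The anterior and posterior preplacodal regions had 329 and 365 CPM.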
